A study of Homo sapiens with 4 samples.

Results

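The genes described here were 36 members of the hypoxia response and of glycolysis, among 43305 genes that the array measured. They were listed by name and known function, as 18 glycolytic enzymes and 18 other targets or regulators of the response to low oxygen. The cells were 2 lines from squamous carcinomas of the head and neck (HNSCC), HN4 and HN30, and the derived lines HN4/DDP and HN30/DDP, which are resistant to cisplatin, a DNA-damaging platinum compound. Resistance was obtained by stepwise increases of the drug, and by the sample labels the resistant lines were kept with 20 μM cisplatin for 48 h, whereas no drug is named for the parental lines. Resistance and the presence of the drug therefore cannot be told apart. No oxygen level is named for any line, so the word hypoxia stands for the known regulation of the genes and not for a treatment. Each of the 4 samples was read on 1 one-colour Agilent array, without replicates, and all differences below describe these 4 arrays.

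A level here is the log2 signal of a probe minus the 75th percentile of its array, so that 0 is the signal at that percentile. Sets of 4 values follow the order HN4, HN4/DDP, HN30, HN30/DDP, and pairs of differences give the HN4 lines first and the HN30 lines after them. The percentile itself was a signal of 494, 496, 444 and 480. Of the spots, 57.2%, 59.0%, 55.3% and 63.6% were well above background, and 0 were saturated. A difference is the level in a resistant line minus that in its parental line, and a difference of 1 corresponds to 2-fold. The scanner SD, given beside some differences, is the error that the scanner software assigned to the spots, and was 0.20 for bright genes. It covers the reading of the spots and not the variation between cultures. Probes printed 8 or more times on an array had a median SD between copies of 0.02 to 0.03, depending on the array.

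Squamous epithelial identity was checked first. All 11 squamous markers were well above background in HN4, HN4/DDP and HN30, and 10 of them in HN30/DDP. Their summed signal was 122071, 129877, 111032 and 74340. Most of it on each array came from SFN, encoding 14-3-3 sigma, and from EPCAM, so the sum hardly reflects the keratins. Signals of different probes do not rank genes by amount of RNA. The keratin KRT6A was the marker not well above background in HN30/DDP, where it was at least 183-fold lower than in HN30, while HN4/DDP had 10.0 times the signal of HN4. KRT5, a keratin of basal cells, was lower in both resistant lines, with differences of -4.05 and -1.93. Differences past 2 in HN4/DDP were also measured for the keratins KRT14 (2.33) and KRT17 (3.29) and for the desmosomal cadherin DSC3 (-2.95). In HN30/DDP the same genes differed by 0.22, 0.19 and 1.12. Thus some squamous markers differed between resistant and parental cells, more of them in HN4/DDP, and their part in the differences below was not tested. In such bulk samples, fewer cells of a kind and less RNA per cell cannot be told apart.

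Markers of other cell types were mostly dim. Of 6 fibroblast markers, COL1A1 and PDGFRB were well above background on each array, and COL1A2, COL3A1, DCN and LUM on 0 arrays. The summed fibroblast signal was 195, 510, 99.1 and 370, with COL1A1 giving the highest signal throughout. COL1A1 itself differed by 1.73 and 2.43. Of 4 leukocyte markers on the array, 3 were well above background in HN4, HN4/DDP and HN30 and 4 in HN30/DDP, with summed signals of 6051, 6661, 5211 and 21367. Most of the last sum was CD14, whose difference in HN30/DDP was 3.49, whereas the pan-leukocyte gene PTPRC differed by 0.16 and the B-cell gene CD79A by -0.72. The T-cell gene CD3E, well above background in HN30/DDP alone, was at least 1.38-fold higher there. The 4 endothelial markers summed to 131, 157, 99.3 and 137 in the same order, and the defining receptor KDR was well above background on 0 arrays. The endothelial marker with the highest signal was CDH5 in the parental and VWF in the resistant lines. In HN4/DDP the signal of VWF was at least 5.37-fold higher, and PECAM1 was at least 2.05-fold lower there. In HN30/DDP VWF differed by 1.49, and PECAM1 went the other way, at least 1.64-fold higher.

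As background, hypoxia-inducible factor (HIF) is a pair of an alpha subunit, HIF1A or EPAS1, and the constant partner ARNT. With oxygen present, prolyl hydroxylases such as EGLN1 mark the alpha subunit for destruction by the VHL ubiquitin ligase, and without oxygen the pair binds DNA at the letters ACGTG or GCGTG in hypoxia response elements. Its known targets include glucose transporters, nearly every enzyme of glycolysis, lactate dehydrogenase A, pyruvate dehydrogenase kinase 1, and secreted factors such as VEGFA. HIF activity is set mainly by protein stability, which an mRNA level does not measure. Squamous carcinomas of the head and neck are known to contain hypoxic regions and to use glucose heavily.

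Of the 36 genes, 35 were well above background on all 4 arrays. The exception was SLC2A3, encoding the glucose transporter GLUT3, which was well above background on 0 arrays and is given no difference. In HN4/DDP against HN4, 0 of the 18 glycolytic enzymes were higher or lower by more than 1, while 9.31% of the 26853 genes tested were higher and 8.65% were lower by as much. Among the 10% of genes with the highest mean signal, which hold 11 of the 18 enzymes, the shares were smaller, at 2.17% and 5.66%. Among the 17 other hypoxia genes tested, 3 were higher and 3 were lower by more than 1. In HN30/DDP against HN30, 6 of 18 glycolytic enzymes were lower and 1 was higher by more than 1, beside 13.3% and 19.8% of the 28330 genes tested. Among the 17 other hypoxia genes, 1 was higher and 0 were lower. With a difference past 2, which is the threshold of the study, ANGPTL4 was the 1 gene higher and VEGFA the 1 gene lower in HN4/DDP, where 3.61% and 2.2% of all genes passed it. Past 2 in HN30/DDP were PGAM1 and LDHA, both lower, where 2.75% of all genes were lower and 8.37% were higher. The calls of VEGFA, PGAM1 and LDHA past 2 depended on the scaling, as given with each gene below.

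**Figure D1:**
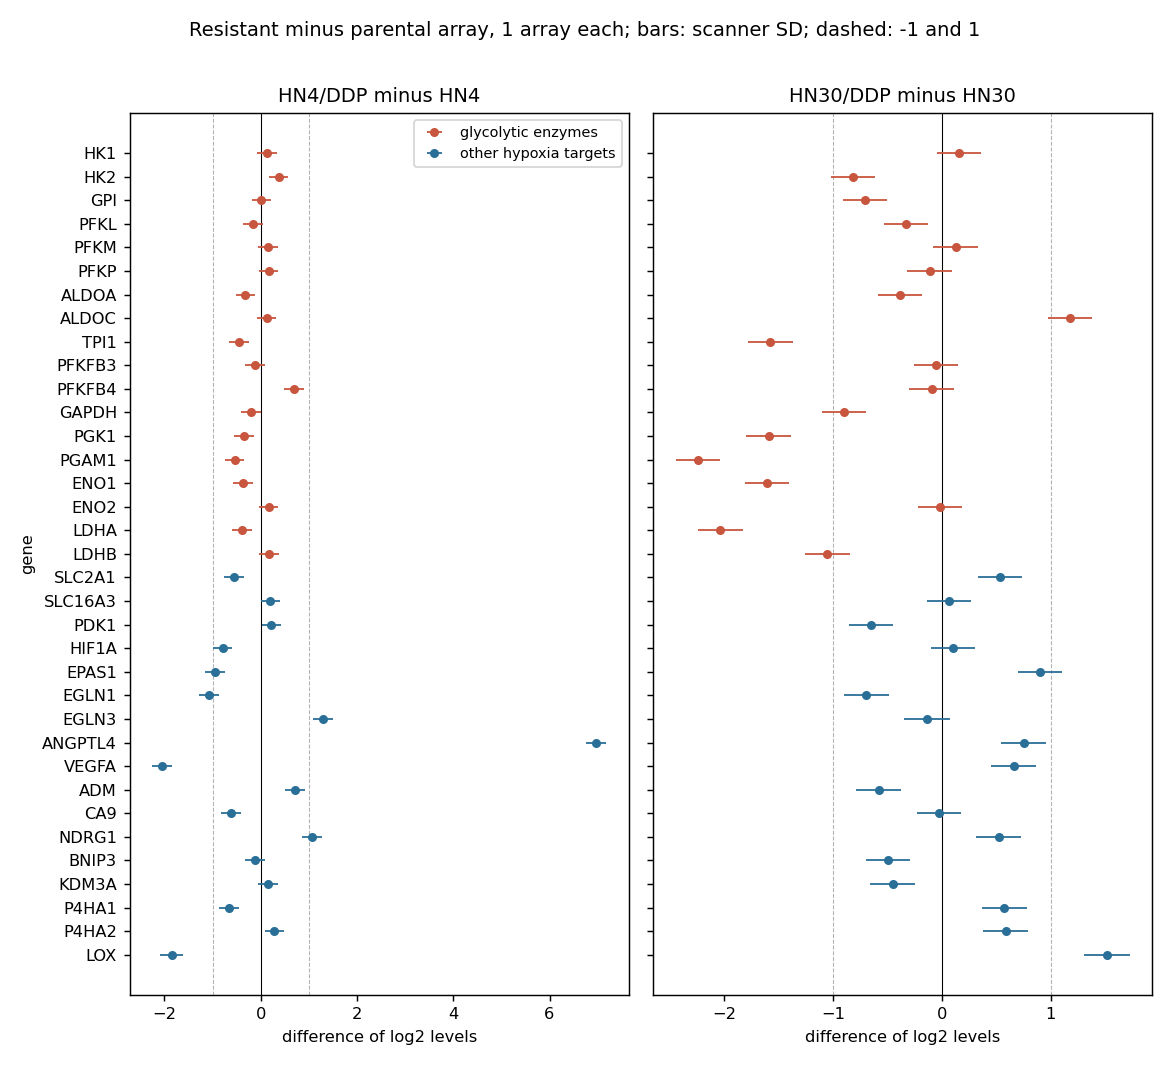
Difference of log2 levels, resistant minus parental, on the horizontal axes for the 35 genes well above background, listed on the vertical axis by role, with HN4/DDP against HN4 on the left and HN30/DDP against HN30 on the right. Each point is 1 array against 1 array, bars are the scanner SD, and the axes of the panels differ in range. The glycolytic enzymes lie within 1 of 0 in HN4/DDP and reach -2.24 in HN30/DDP.

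The 6 glycolytic enzymes lower by more than 1 in HN30/DDP were spread over several steps. There PGAM1 was 4.72-fold, LDHA 4.09-fold, ENO1 3.04-fold, PGK1 3.01-fold, TPI1 2.98-fold and LDHB 2.07-fold lower than in HN30. The HN30/DDP array had the lowest level of each. It lay nearest to the other arrays for LDHB, at 7.35 beside 7.99 in HN4, 8.16 in HN4/DDP and 8.40 in HN30. The median difference of the 18 enzymes was -0.54, against 0.06 for all genes, and 15 of the 18 were below 0, beside 47.1% of all genes. With the trend with brightness taken off, 10 of 18 were below 0, beside 51.9%. In HN4/DDP the median was -0.05, against -0.08 for all genes, and 9 of 18 were below 0, beside 55.9%.

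PGAM1, the phosphoglycerate mutase of most tissues, had levels of 6.57, 6.03, 6.72 and 4.48. The differences were -0.54 and -2.24, each with a scanner SD of 0.20. Another PGAM1 probe gave -0.41 and -2.28. In HN30/DDP PGAM1 fell short of 2 with quantile normalization (-1.73), with the deposited table (-1.74) and with the trend with brightness taken off (-1.75). LDHA, the lactate dehydrogenase subunit that favours the making of lactate, had levels of 8.19, 7.79, 7.97 and 5.94 and differences of -0.39 and -2.03. A further probe under the name LDHA gave -0.40 and -2.42, but its coordinates lie on chromosome 9 and not at the LDHA gene on chromosome 11. Under the same settings LDHA was at -1.56, -1.58 and -1.59, and with normexp background correction its size was also just under 2. For LDHB, the other subunit, the levels were 7.99, 8.16, 8.40 and 7.35. LDHB differed by 0.17 in HN4/DDP, within its scanner SD of 0, and by -1.05 in HN30/DDP, the same sign as LDHA, or -0.63 with the trend with brightness taken off.

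TPI1, which interconverts the triose phosphates, had levels of 7.27, 6.81, 7.45 and 5.87. PGK1, which makes ATP from 1,3-bisphosphoglycerate, was read on up to 10 spots and had levels of 6.62, 6.27, 6.81 and 5.22. ENO1, the main enolase, had levels of 6.35, 5.98, 6.69 and 5.09. The differences of these genes in HN30/DDP were -1.57, -1.59 and -1.60, and in HN4/DDP they were -0.45, -0.35 and -0.36. ENO2, the neuronal enolase isozyme, differed by 0.16 and -0.02, from levels of 1.79, 1.96, 2.27 and 2.26. ENO2 thus lay within its scanner SD of 0 in both lines, and ENO1 was below 0 in both.

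GAPDH, which the field often takes as a loading reference, had levels of 8.24, 8.05, 8.31 and 7.41. Its differences were -0.20 and -0.90, and its spots, up to 10 on an array, had an SD of at most 0.02. Over 6 other scalings the GAPDH difference in HN30/DDP ranged from -1.32 to -0.47, below 0 throughout. PKM, which makes pyruvate in the last step of glycolysis and was not among the 36, had levels of 6.62, 5.95, 6.43 and 4.99. Its differences were -0.67 and -1.44, and the latter ranged from -1.86 to -0.89 over the other scalings, short of 1 with the deposited table.

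The hexokinase and aldolase isozymes had unlike differences in HN30/DDP. ALDOC, the brain-type aldolase, was the glycolytic gene higher by more than 1 there, at 1.18, or 0.76 with the array median, with levels of 1.81, 1.93, 0.77 and 1.94. The parental lines differed in ALDOC by -1.05 (HN30 minus HN4), so that HN30/DDP ended near the level of the HN4 lines. ALDOA, the aldolase of muscle and most cultured cells, had levels of 7.28, 6.96, 6.98 and 6.60, and its difference of -0.38 in HN30/DDP turned to 0.07 once the trend with brightness was taken off. HK2, the hexokinase induced by HIF, had levels of 3.634, 4.005, 3.563 and 2.748, with differences of 0.37 and -0.82, the latter from -1.24 to -0.36 over other settings. In HN4/DDP HK2 was at 0.99 with the mean of all probes, which takes in a probe not well above background on any array. HK1, the hexokinase of most tissues, had levels of 3.16, 3.30, 3.10 and 3.26, and its difference in HN30/DDP was 0.16, or -0.26 with the array median as scale. PFKFB4, which sets the level of the phosphofructokinase activator fructose 2,6-bisphosphate, had levels of 0.93, 1.62, 0.93 and 0.84, and differed by 0.69 and -0.09. Its relative PFKFB3 had levels of 1.90, 1.78, 2.40 and 2.34, and differed by -0.12 and -0.05. A further PFKFB3 probe gave 0.13 and 0.40, the opposite sign in both lines. In HN30/DDP PFKFB3 and PFKFB4 were thus close on the probes kept, but not on that further probe. Of the remaining enzymes, GPI differed by -0.70 in HN30/DDP, from -1.12 with the array median to -0.15 with quantile normalization. The phosphofructokinase genes PFKL, PFKM and PFKP lay between -0.33 and 0.16 in both lines.

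Bright genes as a whole were lower in HN30/DDP, and most glycolytic enzymes are bright. Among the 10% of genes with the highest mean signal, 2952 genes, the median difference was -0.48 in HN30/DDP and -0.11 in HN4/DDP. Of the 11 glycolytic enzymes among them, 6 were lower by more than 1 in HN30/DDP, beside 27.0% of all genes that bright, and the median of the 11 was -1.05. For a difference past 2 the figures were 2 of 11 beside 3.86%. In the brightest 2%, 591 genes, 3 of 6 glycolytic enzymes were lower by more than 1, beside 16.9% of those genes. With the trend with brightness taken off, 5 of 18 enzymes were lower by more than 1, beside 12.1% of all genes, and the median of the 18 was -0.20, against -0.04. TPI1, PGK1, PGAM1, ENO1 and LDHA were past -1 under all 6 other scalings. The signs of HK1, PFKM, PFKP, ALDOA, PFKFB3, PFKFB4 and ENO2 in HN30/DDP turned under at least 1 of them, whereas 0 of the 18 enzymes changed sign in HN4/DDP.

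**Figure D2:**
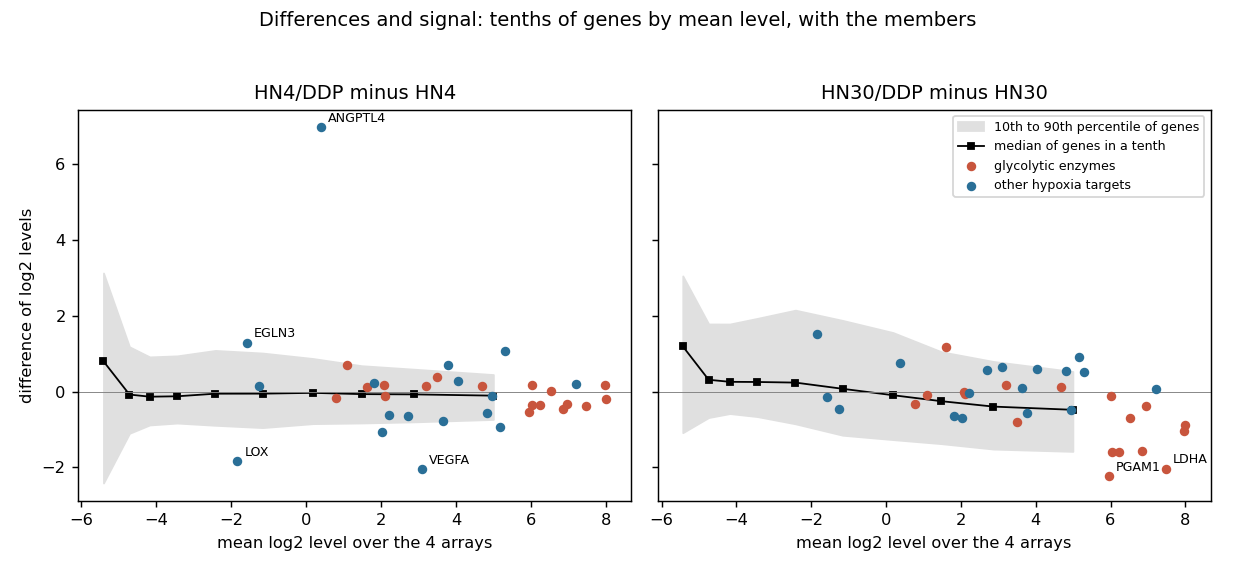
Difference of log2 levels, resistant minus parental, against the mean log2 level over the 4 arrays. Squares are medians of genes in steps of 10% by mean level, the grey band runs from their 10th to their 90th percentile, and coloured points are the 35 genes. In HN30/DDP the medians decline with signal to -0.48, and LDHA and PGAM1 lie at -2.03 and -2.24.

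The split of all genes depended on the scaling as well. In HN30/DDP 5605 genes were higher and 3756 lower by more than 1, so that 59.9% of them were higher, beside 36.3% with the array median and 46.6% with normexp background correction. Relative to the 75th percentile, the median of all genes in HN30/DDP moved by -0.42 with the array median, by -0.12 with quantile normalization or with the deposited table, and by -0.13 with the percentile taken over probes. In HN4/DDP none of these scalings moved it by more than 0.04.

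Among the other hypoxia genes, ANGPTL4 showed the widest difference. ANGPTL4, a secreted inhibitor of lipoprotein lipase that both HIF and PPAR factors are known to induce, had levels of -2.01, 4.96, -1.09 and -0.33. It was thus 126-fold higher in HN4/DDP than in HN4, a difference of 6.97 with a scanner SD of 0.21. In HN30/DDP the difference was 0.75, so that the HN4/DDP array stood alone at the high end. Its 1 probe lies at chr19:8439197-8439256 (hg19). Over 11 other settings the difference in HN4/DDP ranged from 6.35 to 7.02.

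VEGFA, the main growth factor of blood vessels, went the other way in HN4/DDP. Its levels were 3.92, 1.87, 2.96 and 3.62. The difference was -2.05 in HN4/DDP, 4.14-fold lower, and 0.66 in HN30/DDP, where it ranged from 0.24 to 1.08 over other settings. A further VEGFA probe gave -1.80 and 0.69. In HN4/DDP VEGFA fell just short of 2 with quantile normalization (-1.97), the deposited table (-1.97), the trend with brightness taken off (-1.96) and the mean of all probes (-1.92). ADM, encoding the vasodilator peptide adrenomedullin, had differences of 0.71 and -0.58. The 3 secreted factors therefore shared no direction in either line. In HN30/DDP this rested on ADM, which was within its scanner SD of 0 once that trend was taken off.

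LOX, which cross-links collagen, passed 1 in opposite directions. Its levels were -1.77, -3.61, -1.75 and -0.23. The parental lines were alike, and the resistant lines lay on either side of them, with differences of -1.85 (scanner SD 0.24) and 1.52 (scanner SD 0.21). With normexp the difference in HN4/DDP was -1.04. The probe was printed 10 times, at chr5:121405786-121405845 (hg19), with an SD between copies of at most 0.14. The collagen prolyl hydroxylases P4HA1 and P4HA2 differed by -0.66 and 0.28 in HN4/DDP and by 0.58 and 0.59 in HN30/DDP. The histone demethylase KDM3A differed by 0.15 and -0.45.

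The HIF subunits and their hydroxylases were compared next. HIF1A, read on up to 10 spots, had levels of 3.94, 3.15, 3.68 and 3.78. Its difference was -0.79 in HN4/DDP, and in HN30/DDP it was 0.11, which turned to -0.31 with the array median. EPAS1, encoding HIF-2 alpha, had levels of 5.67, 4.72, 4.69 and 5.59. Its differences were -0.95 and 0.90, and the latter ranged from 0.48 with the array median to 1.47 with the deposited table. EGLN1, the main oxygen sensor among the prolyl hydroxylases, had levels of 2.51, 1.43, 2.44 and 1.75, and was lower in both resistant lines, with differences of -1.08 and -0.69, the latter from -1.11 with the array median to -0.38 with the trend with brightness taken off. EGLN3, a hydroxylase that is itself induced by HIF, had levels of -1.81, -0.52, -1.93 and -2.06, with differences of 1.29 and -0.13. With normexp the EGLN3 difference in HN4/DDP was 0.95, short of 1.

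**Figure D3:**
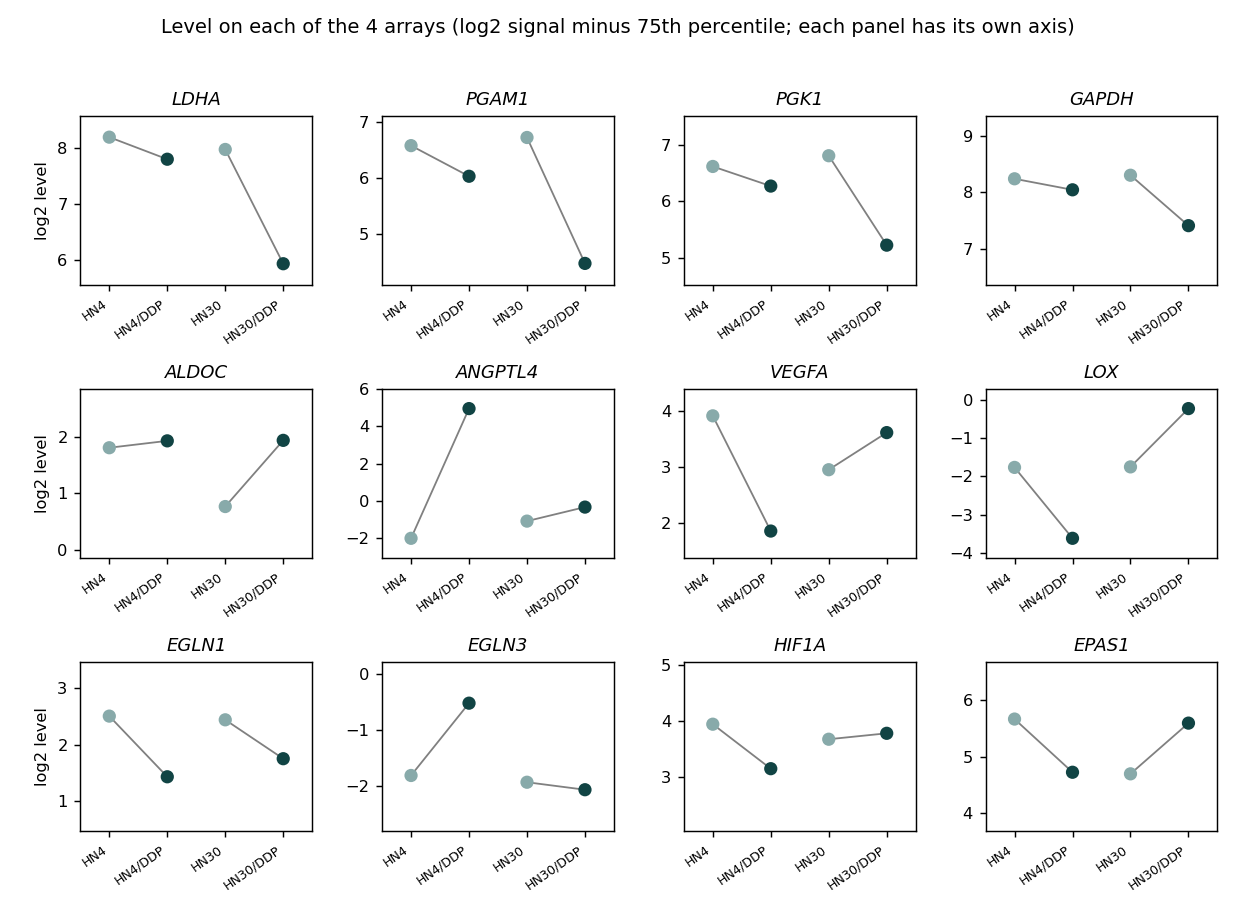
Log2 level, on the vertical axes, of 12 genes on each of the 4 arrays, 1 point per array, with parental lines in light and resistant lines in dark colour and lines joining each pair. Each panel has its own axis, so that heights are not to be compared between genes. ANGPTL4 reaches 4.96 in HN4/DDP alone, LDHA drops to 5.94 in HN30/DDP alone, and LOX moves apart in the resistant lines.

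NDRG1, a stress-responsive gene induced by HIF, had levels of 5.03, 6.09, 4.77 and 5.30. Its differences were 1.06 and 0.52, and the latter ranged from 0.10 with the array median, within the scanner SD, to 1.08 with the deposited table. CA9, the carbonic anhydrase that is widely used as a marker of hypoxia, differed by -0.62 and -0.03, and the mitophagy gene BNIP3 by -0.12 and -0.49. In HN30/DDP the signs of CA9 and BNIP3 turned under at least 1 scaling. SLC2A1, the glucose transporter GLUT1, differed by -0.56 and 0.54, and the latter ranged from 0.12 with the array median to 1.08 with the deposited table. The lactate exporter SLC16A3 differed by 0.20 and 0.07, the latter turning to -0.35 with the array median. PDK1, which restrains the entry of pyruvate into mitochondria, differed by 0.22 and -0.65.

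The median of the 17 other hypoxia genes was -0.12 in HN4/DDP, against -0.08 for all genes, and 0.11 in HN30/DDP, against 0.06. In HN30/DDP 6 of the 17 were higher by more than 1 with quantile normalization, in place of 1, beside 17.7% of all genes. The same number came from the deposited table, beside 17.8%, and after the trend with brightness was taken off, beside 16.2%. Between the parental lines, 1 of the 18 glycolytic enzymes and 0 of the 17 other genes differed by more than 1, and between the resistant lines 4 and 6 did. The number was also larger between the resistant lines over all 29521 genes with a signal well above background on any array. Of these, 3319 differed by more than 1 between the parental and 7837 between the resistant lines. Across the 18 glycolytic enzymes the differences of both pairs of lines had the same sign in 12, and across the 17 other genes in 7, beside 56.4% of the 29521 genes. These pairs share no array, but genes are not independent replicates, and the signs are a description.

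**Figure D4:**
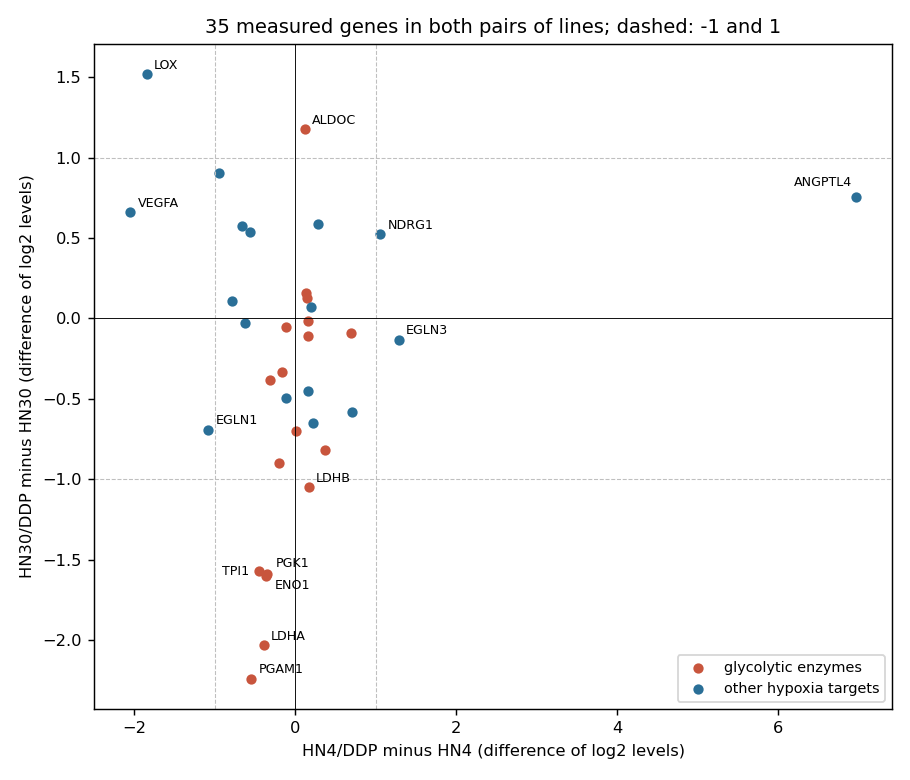
Difference of log2 levels in HN30/DDP against HN30 (vertical) and in HN4/DDP against HN4 (horizontal) for the 35 genes, with names for those past 1 in at least 1 pair. LOX lies at the upper left at -1.85 and 1.52, and PGAM1 and LDHA lie low near the vertical axis.

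The contrast of resistance over both lines took both resistant against both parental arrays and fitted the cell line as a block. The limma fit over 29521 genes called 0 genes, 0% of those tested, at an adjusted p under 0.05. Without adjustment, 2537 genes had p under 0.05, 8.59% of all, and 3 of the 35 members, 8.57%, namely TPI1, PGAM1 and LDHA. For PGAM1 the mean difference was -1.39, lower in 2 of 2 lines, with an adjusted p of 0.564 by limma. LDHA differed by -1.21 with an adjusted p of 0.578, and ANGPTL4 by 3.86, higher in 2 of 2 lines, with an adjusted p of 0.595 by limma. With 1 residual degree of freedom per gene, these p-values do not show that levels were equal.

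Promoter sequences are shown for 5 members with differences past 1, to set beside their values the letters to which HIF binds. RefSeq promoters (GRCh38.p14) of 250 bases before and 50 after the start were found for 33 of the 36 genes, 63 promoters in all, and not for VEGFA, NDRG1 and SLC2A3. The letters ACGTG and GCGTG were searched on both strands, where CACGTG holds ACGTG on each of them. Either was present in 43 of the 63 promoters, 68.3%, beside 48.4% of all 35116 promoters, and ACGTG alone in 41.3% beside 21.4%. The share with either was 64.1% for glycolytic enzymes and 75% for the other genes. The 250 bases before the start are printed 5′ to 3′ in lower case, with the matches in capitals, for the first listed promoter of each gene.
LDHA, chr11:18394313-18394562, plus strand: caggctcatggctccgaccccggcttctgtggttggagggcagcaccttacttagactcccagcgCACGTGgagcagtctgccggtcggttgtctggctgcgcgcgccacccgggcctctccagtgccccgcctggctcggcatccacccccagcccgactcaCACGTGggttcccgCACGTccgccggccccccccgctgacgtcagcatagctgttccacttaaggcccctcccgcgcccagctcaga
PGK1, chrX:78103998-78104247, plus strand: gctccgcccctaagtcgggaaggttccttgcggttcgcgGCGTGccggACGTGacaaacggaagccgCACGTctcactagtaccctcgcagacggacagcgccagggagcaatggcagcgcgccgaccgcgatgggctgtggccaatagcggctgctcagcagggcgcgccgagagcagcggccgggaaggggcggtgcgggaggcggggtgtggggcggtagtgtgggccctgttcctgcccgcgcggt
PGAM1, chr10:97427568-97427817, plus strand: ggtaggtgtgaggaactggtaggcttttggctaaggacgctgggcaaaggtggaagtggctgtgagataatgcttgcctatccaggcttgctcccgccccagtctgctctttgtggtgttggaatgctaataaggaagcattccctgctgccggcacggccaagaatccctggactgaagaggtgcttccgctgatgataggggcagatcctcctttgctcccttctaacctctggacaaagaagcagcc
ANGPTL4, chr19:8363905-8364154, plus strand: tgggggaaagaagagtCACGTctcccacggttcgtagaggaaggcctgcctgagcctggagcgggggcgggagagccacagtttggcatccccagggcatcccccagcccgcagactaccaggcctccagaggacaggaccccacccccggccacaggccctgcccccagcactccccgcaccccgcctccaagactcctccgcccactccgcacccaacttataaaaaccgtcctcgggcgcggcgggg
LOX, chr5:122078260-122078509, minus strand: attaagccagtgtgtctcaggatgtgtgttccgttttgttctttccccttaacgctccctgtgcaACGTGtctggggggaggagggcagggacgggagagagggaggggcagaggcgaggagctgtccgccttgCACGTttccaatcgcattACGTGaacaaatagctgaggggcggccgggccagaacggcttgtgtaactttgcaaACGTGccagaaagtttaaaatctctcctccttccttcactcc
In these stretches LDHA held 5 matches, PGK1 3, PGAM1 0, ANGPTL4 1 and LOX 4. PGAM1 and LDHA, the genes with differences past -2 in HN30/DDP, thus had 0 and 5 matches, and a match is not a binding site.

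The counts of the further lists stand beside 9.31% higher and 8.65% lower among all genes in HN4/DDP, and 19.8% and 13.3% in HN30/DDP. Of 13 other regulators of the pathway, 11 were below 0 in HN4/DDP, beside 55.9% of all genes, and 2 were lower and 1 was higher by more than 1. In HN30/DDP 4 were lower and 1 was higher by more than 1, with a median of -0.72, against 0.06 for all genes. Of the 4, TCEB1 (-1.02) and RBX1 (-1.04) were among the 10% of genes with the highest mean signal, whose median there was -0.48. TCEB2 (-1.18) was in the next 10%, with a median of -0.40. CREBBP (-1.20) was less bright, among genes with a median of -0.10. The part of brightness in these counts was not tested. With the array median, EGLN2 (-0.86 before it), CUL2 (-0.74) and HIF3A (-0.72) also pass -1 there, and ARNT2 falls short of 1. The gene past 2 was ARNT2, a relative of the partner subunit ARNT, with differences of 2.12 and 1.01. Of 20 further HIF targets tested, 1 was higher and 3 were lower in HN4/DDP, and 7 were higher and 2 lower in HN30/DDP. PLOD2, which hydroxylates lysines of collagen, was the 1 past 2, at -2.21 in HN4/DDP and -0.75 in HN30/DDP.

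Further genes of carbohydrate use gave no single direction. Of 12 further glycolysis genes tested, 1 was higher and 1 lower by more than 1 in HN4/DDP, and 2 were higher and 1 was lower in HN30/DDP. PKLR, the pyruvate kinase of liver and red cells, was at least 5.59-fold higher in HN4/DDP than in HN4, where it was not well above background. Of 12 genes of pyruvate entry into mitochondria, 2 were higher and 1 was lower in HN4/DDP, and 0 were higher and 3 lower in HN30/DDP. Of 8 pentose phosphate genes, 0 passed 1 in HN4/DDP, and 1 was lower in HN30/DDP. With the array median, TALDO1 (-0.90 before it) and RPE (-0.88) also pass -1 there. Of 8 further sugar and lactate transporters, 3 were higher and 2 lower in HN4/DDP, and 3 were higher and 0 lower in HN30/DDP. In HN4/DDP 1 of the 3 was SLC2A4, which was not well above background in HN4 and for which the bound is only at least 1.27-fold. The genes higher in HN30/DDP were the glucose transporters SLC2A12, with a difference of 2.88, SLC2A10, with 2.28, and SLC2A4 (GLUT4), at least 3.59-fold higher than in HN30, where it was not well above background. In HN30/DDP SLC2A6 (-0.99), SLC16A7 (-0.95) and SLC16A1 (-0.72) were short of -1. With the array median, which moves differences there by -0.42, they pass it.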

How the data were processed

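The authors deposited, for each array, the processed intensity of every spot, made with Agilent Feature Extraction 10.7.1.1 per the file headers (probe coordinates on hg19), which subtracts background and marks spots well above it. A table that the authors deposited as log2 values was used as an alternative. Its median was 4.65 on each array, its sorted columns were identical, and its differences had a correlation across genes with those of the reanalysis of r = 0.999 for the HN4 and 0.965 for the HN30 lines. The steps behind that table are not given in the sources used here. Single dim genes therefore carry the software's background correction, and differences between arrays carry the scaling.

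From 60901 spots that are not controls, log2 intensity minus the 75th percentile was taken, spots marked as outliers (140 to 204 per array) were left out, and spots of a probe were averaged. Where a gene had several probes, that with the highest average level was kept, as for 10 of the 36. A higher gene had a difference above 1 and a resistant signal well above background, and a lower gene had a difference below -1 and a parental signal well above background. A gene was tested if either array of the pair gave such a signal. For a gene not well above background on 1 array, the bound used the higher of its own level and the lowest level so marked on that array (-4.76, -4.99, -4.63 and -4.94 for HN4, HN4/DDP, HN30, HN30/DDP). The arrays shared 1 slide and 1 scan. The number of arrays limits precision.

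Per-array levels were given for members past 1 in at least 1 line, for HIF subunits, EGLN1, EGLN3 and GAPDH, and for isozymes of a step with opposite signs more than 0.5 apart. From other lists, genes past 2 in at least 1 line and PKM were named, and DDIT4, ANKRD37 and STC2 were named after their values were seen. Some genes of these lists whose call changes with the array median were also named after their values were seen. So were the regulators lower by more than 1 in HN30/DDP. The members and lists, with 108 further genes of which 2 (TIGAR and CD68) were not found by name, were chosen with earlier results of these data known. By accession, 35 of 36 members matched their RefSeq symbol (GRCh38.p14, names only). Sequences came from RefSeq. A comparison of isozyme proteins was planned and not run here. Limma 3.58.1 (R 4.3.3, eBayes with trend, Benjamini-Hochberg adjustment) was used for the fit, with Python 3.11.15, numpy 2.4.6, pandas 2.3.3, statsmodels 0.14.6 (lowess, fraction 0.3) and matplotlib 3.10.9 for the rest. Procedures were tested on simulated data. Alternatives were the array median, quantile normalization, normexp (offset 50), the deposited table, the mean of all probes, a pseudocount of 16, dim signals raised to the lowest signal well above background, genes well above background on both arrays, outlier spots kept, the trend with brightness taken off and, chosen after seeing the data, the percentile over probes. The comparison with the brightest 2% of genes was also added after seeing the data.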

Additional observations from a re-analysis of the deposited data

Results flagged for a closer look

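Of the members and further pathway genes, 104 were well above background on all 4 arrays, and 4 of them, 3.85%, were past 1 in opposite directions in the 2 pairs of lines, beside 306 of 22149 genes, 1.38%. These shares were not compared by a test. For each, the difference between the pairs was not tested, since each condition has 1 array. Pairs of differences give the HN4 lines first. LOX differed by -1.85 and 1.52, so the differences were 3.37 apart, and both stayed past 1 under the 6 other scalings, though the former only at -1.04 with normexp. ANKRD37, a HIF target that encodes an ankyrin repeat protein, differed by 1.16 and -1.34, or -2.50 apart. DDIT4, a stress-induced inhibitor of mTOR signalling, differed by -1.70 and 1.05, or 2.75 apart, and the latter was 0.63 with the array median. STC2, which encodes the glycoprotein stanniocalcin 2, differed by -1.07 and 1.13, or 2.20 apart, and the latter was 0.71 with the array median.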

How the results depend on the processing

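No paired analysis was possible by replicate number because each condition has a single replicate, so leaving out a replicate was not possible either. The limma fit pairs by cell line alone. In HN4/DDP all counts and medians of both groups stayed within their limits (counts within 1.5 times, medians within the scanner SD) except with the threshold of 2, where 1 other hypoxia gene was higher and 1 lower in place of 3 and 3. In HN30/DDP that threshold left 2 glycolytic enzymes lower and 0 higher, and 0 other genes higher. With the array median, 0 glycolytic enzymes were higher and 2 other genes lower, and the medians were -0.96 for glycolytic and -0.31 for other genes, against -0.36 for all genes, of which 23.9% were lower. Quantile normalization gave medians of -0.20 and 0.56, the deposited table -0.20 and 0.56, and the trend with brightness taken off -0.20 and 0.57, each with 6 other genes higher. Quantile normalization and taking off the trend change bright genes relative to dim ones by construction. The steps of the deposited table are not given, but its sorted columns are identical, as quantile normalization makes them. It is therefore not a check separate from that setting. For the other settings the cause was not tested. The count of glycolytic enzymes lower in HN30/DDP ranged from 5 to 9 under the settings that kept the threshold of 1, the 9 with the array median. Limma called 0 genes under each of 4 other settings, with 2186 to 3261 genes at an unadjusted p under 0.05. Of the members, 3 had such a p in the main setting and without the block, 1 with quantile normalization, 0 without a trend and 0 with no filter on signal. Of 770 values of single members under other settings, 640 moved by less than the scanner SD, 130 moved by more, and 0 past 1 changed sign. Signal over background limits SLC2A3, PKLR and SLC2A4.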

Other observations

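Of the 12 genes of pyruvate entry tested, 3 were lower by more than 1 in HN30/DDP and 5 were above 0. There PDHB (-0.97), PDHA1 (-0.74) and MPC2 (-0.69) were short of -1, and PC (0.31) and PDP1 (0.15) were above 0. With the array median, which moves differences there by -0.42, the former pass -1 and the latter fall below 0. Pairs of differences give the HN4 lines first. DLD, a shared subunit of the pyruvate and other dehydrogenase complexes, differed by -0.92 and -1.78. The carrier subunit MPC1, which takes pyruvate into mitochondria, differed by 0.31 and -1.28, and DLAT, the acetyltransferase of pyruvate dehydrogenase, by -0.89 and -1.26. In the pentose phosphate pathway, the transketolase gene TKT differed by 0.48 and 0.99. TALDO1, the transaldolase that works beside it, differed by 0.43 and -0.90. With the array median TALDO1 passes -1 in HN30/DDP and TKT stays above 0. Both were among the 10% of genes with the highest mean signal, whose median difference in HN30/DDP was -0.48. The coactivator CREBBP, through which HIF acts on transcription, was lower by more than 1 in both lines, at -1.61 and -1.20, while its relative EP300 differed by -0.53 and 0.37. These genes were named after their values were seen.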
